A study of Arabidopsis thaliana with 12 samples.

Results

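Cytochromes P450 (CYP) and UDP-glycosyltransferases (UGT) are among the largest enzyme families of plants. P450s are heme proteins that add oxygen to small molecules with electrons passed on from NADPH by a reductase, and they shape hormones, sterols, phenolics and defence compounds. UGTs move a sugar from a UDP-sugar onto such molecules, which changes the solubility, storage and activity of hormones, flavonoids, lignin precursors and foreign compounds. In leaves both families act on abscisic acid, auxin and cytokinin, and on pigments and defence compounds. UGTs also act on salicylate.

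The members described here were the probe sets whose platform annotation names 1 gene with a symbol of CYP or UGT followed by digits and a letter. Of 75 probe sets with such a symbol, 5 named several genes, and UGT78D2 and UGT74B1 were left out by the rule, which left 68 genes of 22746 probe sets tested. These were 23 CYP genes and 45 UGT genes, and 0 genes had more than 1 member probe set. The CYP members were mostly of 1 subfamily, with 19 CYP71B genes beside CYP51G2, CYP78A9, CYP79A2 and CYP84A4. The UGT members comprised 9 genes of UGT71, 8 of UGT76, 7 of UGT73, 5 each of UGT84 and UGT85, 4 of UGT72, 2 each of UGT74 and UGT78, and 1 each of UGT80, UGT87 and UGT88. RefSeq lists CYP71B27 and CYP51G2 as pseudogenes. Many well-known P450s and UGTs are not named by a 1-gene probe set in the annotation used here and were not analysed.

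RNA came from leaves of Arabidopsis thaliana of the genotypes Ws, Col(gl) and Col. Ws and Col commonly stand for Wassilewskija and Columbia, and the labels do not describe how Col(gl) departs from Col. All plants grew on soil in a growth chamber and were sampled 20 days after sowing. The salted groups (Ws, Col(gl) and Col at 100 mM NaCl) had received nutrient solution with NaCl, raised in steps, for 6 days, and the unsalted groups (Ws, Col(gl) and Col at 0 mM) nutrient solution without it. Each of the 6 groups had 2 arrays, called biological replicates by the study, and how many plants went into each is not stated.

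The median log2 signal of an array was 6.15 to 6.38, its lower quartile 4.19 to 4.42, and the mean of those quartiles 4.30. A group mean at or under it is not shown to be above background here, and a difference from it is read as a lower bound. Of the measured leaf markers (2 of 8), RCA and LHCB4.1 stood at 13.4 to 14.1 on every array. Of the root markers 2 of 6 were measured: EXPA7 lay between 4.22 and 4.87, while PYK10, a beta-glucosidase abundant in roots and seedlings, read 9.99 and 7.73 in salted Col and 6.73 and 3.61 in salted Ws, against 3.51 to 4.0 on the other 8 arrays. The guard cell marker FAMA (1 of 3 measured) lay between 6.50 and 7.23, and 0 of 3 flower markers were measured. Replicate 1 of salted Ws and of salted Col stood apart from the other arrays, with a median of the 69 plastid-encoded genes of 8.73 and 9.48, against 10.34 to 11.8 elsewhere. Of the latter, unsalted Col(gl) read 10.34 and 10.35, and the remaining arrays 11.2 to 11.8. On replicate 1 of salted Ws and of salted Col the actin control probes differed between the 3' and 5' ends by 3.70 and 3.68, against 1.99 to 2.69 elsewhere. The part of these differences in the results below was not tested, and the salt counts below are also given without these arrays. In leaf tissue, fewer cells of a type and less RNA per cell cannot be told apart.

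On this scale 41 of the 68 members had a mean above the lower quartile in all 6 groups, 15 in some groups and 12 in none. The 12 were CYP71B16, CYP71B21, CYP71B27, CYP71B30P, CYP71B31, CYP71B37, CYP79A2, UGT71C1, UGT73B4, UGT73C2, UGT76D1 and UGT76E1, and 0 of them were called in any comparison. A member is said to be called where limma's adjusted p, over all 22746 probe sets, was under 0.05. Of the 68 members 40 were called in at least 1 of the 9 comparisons and 28 in none. The matching share over all probe sets was not computed. The pooled SD between replicates over the members was 0.431 in salted Ws and 0.266 in salted Col, against 0.145 to 0.180 in the other groups, so the salted groups of Ws and Col were the least precise.

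**Figure D1:**
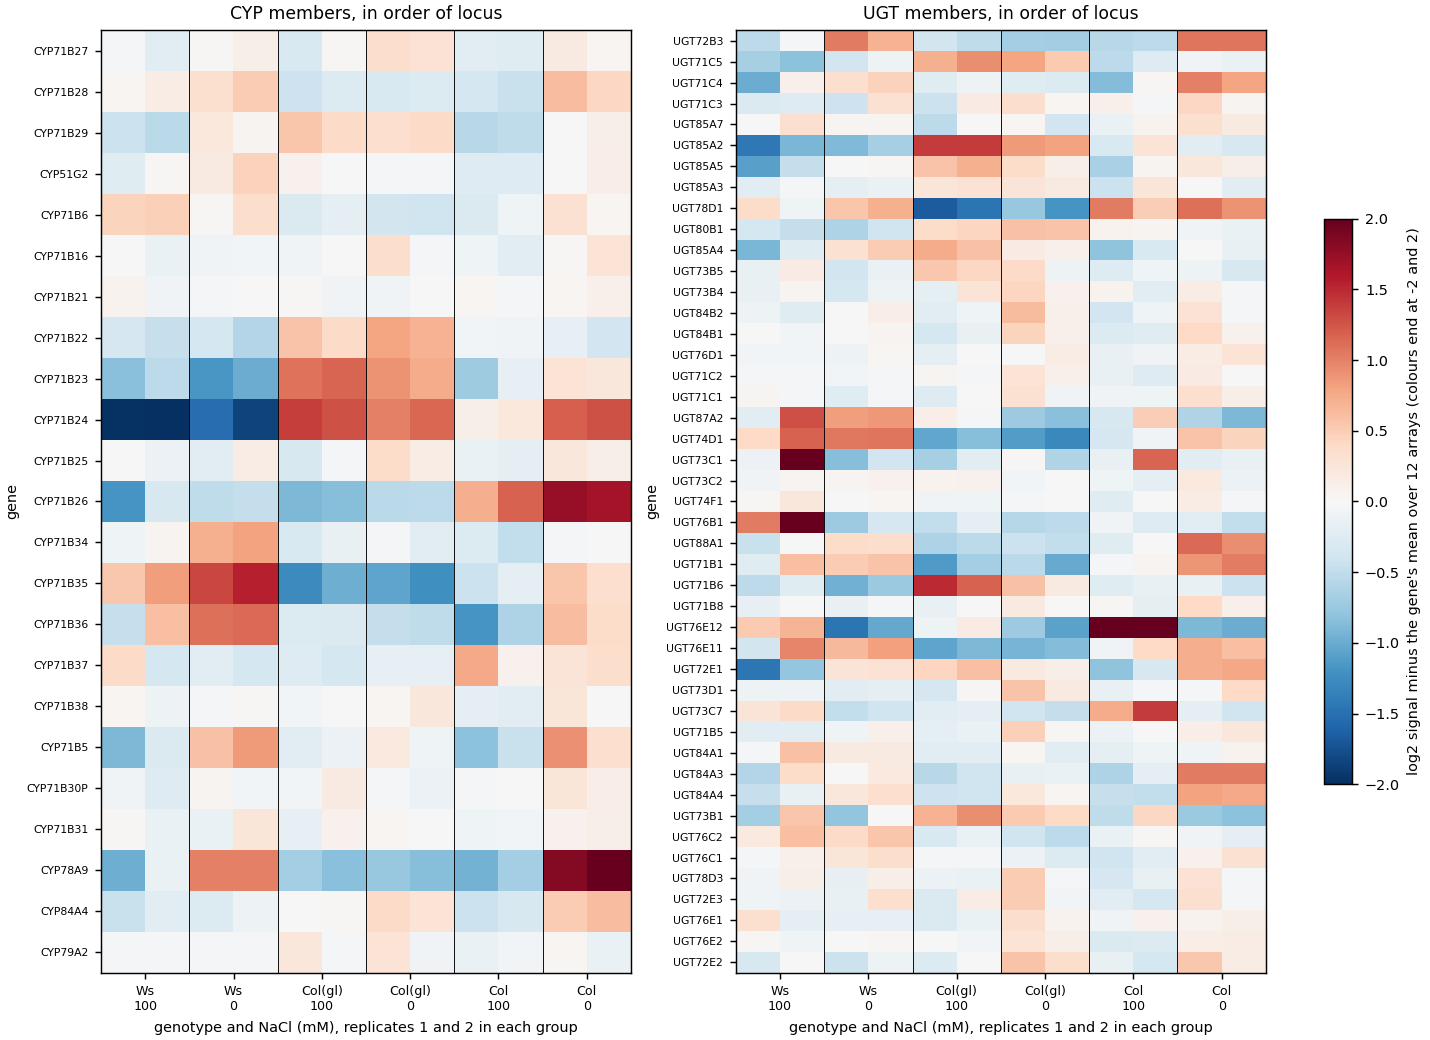
Log2 signal of each of the 23 CYP (left) and 45 UGT members (right), in order of locus, on each of the 12 arrays, minus the gene's own mean over the arrays; columns are the 6 groups with replicates 1 and 2 side by side, and colours end at -2 and 2. CYP71B24 is low on all 4 Ws arrays, UGT76E12 is high on the salted Col arrays, and CYP78A9 is high on the unsalted Col arrays.

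With salt, the called CYP and UGT members were mostly lower in Ws and Col, and few members were called in Col(gl). In Col 25 of 68 members were called (36.8%), 23 lower and 2 higher, where 37.5% of all probe sets were called, 21.1% lower and 16.4% higher. In Ws 15 members were called (22.1%), 12 lower and 3 higher, against 16.6% of all probe sets, 7.45% lower and 9.16% higher. In Col(gl) 2 members were called (2.94%), both higher, against 1.49% of all probe sets (0.787% higher and 0.703% lower), and 15 members had an unadjusted p under 0.05. The share of members called was therefore near that of all probe sets in Col, while more of the called members than of all called probe sets were lower in both Ws and Col. The actin values given above stood apart on replicate 1 of salted Ws and of salted Col only. The plastid medians were lowest on these 2 arrays, and those of unsalted Col(gl), at 10.34 and 10.35, were also under those of the remaining arrays. PYK10 was high on both salted Col arrays and on replicate 1 of salted Ws. Their part in these counts was not tested.

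Of the 23 CYP members 11 were lower in Col and 7 in Ws with salt, and 0 were higher in either. The 7 in Ws include CYP51G2, listed by RefSeq as a pseudogene, with means of 4.40 with salt and 4.83 without. Its change of -0.43 (limma adjusted p = 0.0474) was not called in 15 of 18 alternatives. Of the 45 UGT members 12 were lower and 2 higher in Col, and 5 were lower and 3 higher in Ws. The median salt difference over the members was -0.31 in Col, -0.10 in Ws and -0.08 in Col(gl), beside -0.13, -0.03 and -0.02 over all probe sets. For refits with arrays left out, here and below, the share of all probe sets called was not computed. Their counts therefore stand without that reference. Without replicate 1 of both salted Ws and salted Col, 28 members were called in Col (6 higher, 22 lower) and 20 in Ws (6 higher, 14 lower). By family, 11 CYP members were then lower and 0 higher in Col and 7 lower and 1 higher in Ws, and 11 UGT members were lower and 6 higher in Col and 7 lower and 5 higher in Ws. Of the calls above, 24 of 25 in Col and 13 of 15 in Ws remained. The count in Ws was 8 or 7 without replicate 1 or replicate 2 of unsalted Ws and 25 without replicate 2 of salted Ws. In a fit of the 4 Ws arrays alone it was 1, UGT76E12. The count in Col(gl) was 0 without any 1 of its 4 arrays or of the 2 unsalted Col arrays, 1 without either unsalted Ws array, 6 in a fit of the Col(gl) arrays alone, and 9 without the 2 salted replicate 1 arrays of Ws and Col.

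**Figure D2:**
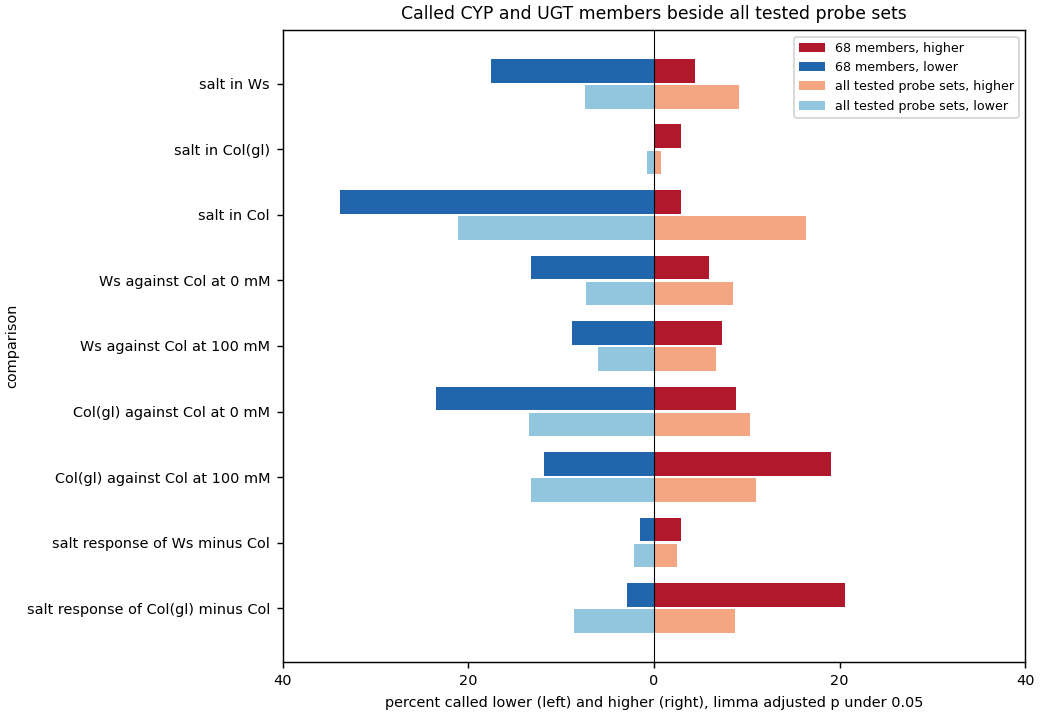
Percent of the 68 members (dark bars) and of all 22746 tested probe sets (pale bars) called by limma in each of the 9 comparisons, lower to the left and higher to the right. In salted Col and salted Ws the dark bars reach further to the left and less far to the right than the pale ones, and in salted Col(gl) few of either were called.

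UGT76E12 (AT3G46660), a glycosyltransferase of the UGT76 group, rose with salt in all 3 genotypes and was the only member to do so. It read 5.74 and 5.89 in salted Ws, against 3.77 and 4.21 in unsalted Ws. In Col(gl) it read 5.12 and 5.38 with salt, against 4.50 and 4.14 without. In Col it read 7.56 and 7.80 with salt, against 4.33 and 4.22 without. The salted and unsalted arrays did not overlap in any genotype, and the salted Col arrays were the highest of all. The rise was at least 3.41 ± 0.18 in Col (log2, ± SE, 2 arrays per group, limma adjusted p = 2.32e-06, 10.6-fold) and at least 1.83 ± 0.18 in Ws (adjusted p = 0.000206, 3.56-fold), since the unsalted means lay under the lower quartile. Each SE here and below comes from 1 spread per gene, pooled over all 6 groups and moderated by limma toward a spread shared by all probe sets. It is therefore not specific to the groups compared, such as salted Ws, the least precise. In Col(gl) the rise was 0.93 ± 0.18 (adjusted p = 0.0426). This call ended with a replicate block, and when any 1 of the 4 Col(gl) arrays or of the 2 unsalted Col arrays was left out. The fitted differences between responses were called, at -2.47 ± 0.26 for Col(gl) minus Col (adjusted p = 0.000287) and -1.58 ± 0.26 for Ws minus Col (adjusted p = 0.00996), but their sizes are not exact, because they rest on unsalted signals not shown to be above background. The salted arrays alone, all above the lower quartile, were lower in Ws and in Col(gl) than in Col. Its neighbour on chromosome 3, UGT76E11 (AT3G46670), was not called with salt in any genotype, at -0.51, -0.44 and -0.08 in Col, Ws and Col(gl).

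UGT73C7 (AT3G53160), which glucosylates hydroxycinnamic acids, rose in Ws and Col. It read 4.92 and 5.03 in salted Ws, against 4.16 and 4.26 in unsalted Ws, and 5.40 and 6.06 in salted Col, against 4.46 and 4.26 in unsalted Col. All salted arrays of these genotypes lay above the unsalted ones. In Col(gl) the values were 4.44 and 4.47 with salt, against 4.26 and 4.17 without, and were not called. The rise in Col was 1.37 ± 0.18 (log2, limma adjusted p = 0.000473), and that in Ws at least 0.77 ± 0.18 (adjusted p = 0.0208). The call in Ws ended without either unsalted Ws array and in a fit of the 4 Ws arrays alone.

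UGT76B1 (AT3G11340), which glucosylates isoleucic acid, salicylate and N-hydroxypipecolic acid and restrains defence, rose in Ws. Its values were 5.61 and 7.40 in salted Ws, against 3.84 and 4.24 in unsalted Ws. The other 8 arrays read between 4.0 and 4.50. Both salted Ws arrays were above every other array, though far from each other. The rise was at least 2.46 ± 0.44 (log2, limma adjusted p = 0.00526), and it was 3.35 without replicate 1 and 1.57 without replicate 2 of the salted group. The call ended without replicate 1 of unsalted Ws, and also in a fit of the 4 Ws arrays alone (adjusted p of up to 0.11). In Col the difference was 0.18 ± 0.44 and in Col(gl) 0.22 ± 0.44, and the difference of responses between Ws and Col, 2.28 ± 0.62, was not called (adjusted p = 0.0768) and has no exact size, since the unsalted means lay under the lower quartile. UGT73C1 (AT2G36750), which O-glucosylates cytokinins, had the widest replicate gap of any member, with 4.57 and 6.82 in salted Ws, against 3.83 and 4.31 in unsalted Ws. Its difference of at least 1.63 ± 0.64 was not called (adjusted p = 0.12), but it was called higher in Ws and in Col without both salted replicate 1 arrays.

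UGT71B6 (AT3G21780), which makes abscisic acid glucose ester, was called with salt in Col(gl). It read 6.15 and 5.83 in salted Col(gl), against 5.24 and 4.84 in unsalted Col(gl), with no overlap. The rise was 0.95 ± 0.18 (log2, limma adjusted p = 0.0391). It was not called with a replicate block, nor without any 1 of the 4 Col(gl) arrays or of the 4 unsalted arrays of Ws and Col. In Ws it read 4.12 and 4.41 with salt against 3.69 and 3.90 without, and in Col 4.41 and 4.50 against 4.50 and 4.23, and neither was called.

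**Figure D3:**
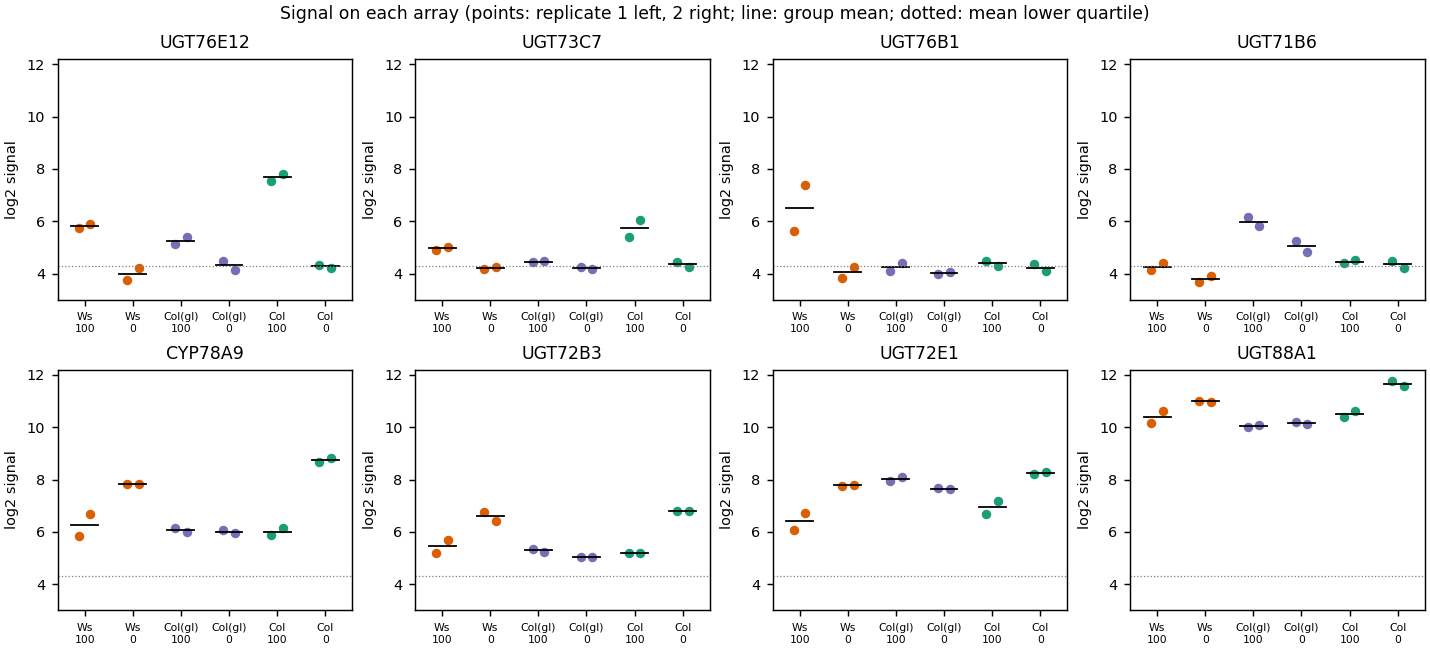
Log2 signal (vertical axis) of 8 members on each array, by genotype and NaCl (mM) on the horizontal axis; points are replicates 1 and 2, lines are group means and the dotted line is the mean lower quartile of 4.30. UGT76E12 is higher with salt in each genotype, UGT76B1 in Ws, and CYP78A9, UGT72B3, UGT72E1 and UGT88A1 are lower with salt in Ws and Col, with no call in Col(gl).

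CYP78A9 (AT3G61880), a P450 of a group that promotes growth of fruits and seeds, had the largest fall with salt among the members, in both Ws and Col. It read 5.84 and 6.68 in salted Ws, against 7.83 and 7.82 in unsalted Ws. In Col it read 5.88 and 6.14 with salt, against 8.66 and 8.82 without. All 4 salted arrays lay below all 4 unsalted ones. The change was -2.73 ± 0.23 in Col (log2, limma adjusted p = 2.98e-05, 6.64-fold lower) and -1.56 ± 0.23 in Ws (adjusted p = 0.00175, 2.95-fold lower). In Col(gl) it read 6.14 and 5.99 with salt, against 6.05 and 5.96 without, so that the Col(gl) arrays stood at the salted level of Col under both conditions. Between Col(gl) and Col the responses differed by 2.78 ± 0.32 (adjusted p = 0.000528).

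UGT72E1 (AT3G50740), which glucosylates lignin precursors, and UGT72B3 (AT1G01420) fell in the same 2 genotypes. UGT72E1 read 6.06 and 6.73 in salted Ws, against 7.76 and 7.80 in unsalted Ws, and 6.70 and 7.18 in salted Col, against 8.23 and 8.28 in unsalted Col. UGT72B3 read 5.20 and 5.69 in salted Ws, against 6.77 and 6.42 in unsalted Ws, and 5.18 and 5.21 in salted Col, against 6.80 and 6.80 in unsalted Col. For both genes the salted and unsalted arrays of Ws and of Col were fully separate. The change of UGT72E1 was -1.39 ± 0.21 in Ws (log2, limma adjusted p = 0.00243) and -1.32 ± 0.21 in Col (adjusted p = 0.00131). That of UGT72B3 was -1.14 ± 0.17 in Ws (adjusted p = 0.00175) and -1.61 ± 0.17 in Col (adjusted p = 0.000102). In Col(gl) UGT72E1 read 7.94 and 8.11 with salt against 7.68 and 7.63 without, and UGT72B3 read 5.36 and 5.22 against 5.05 and 5.03, and neither was called. The responses in Col(gl) and Col differed, by 1.68 for UGT72E1 (adjusted p = 0.0057) and 1.86 for UGT72B3 (adjusted p = 0.00087).

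In all, 10 members were lower with salt in both Ws and Col, which is 83.3% of the 12 lower in Ws and 43.5% of the 23 lower in Col, and 0 were called in opposite directions. The overlap over all probe sets was not computed, so whether it is particular to the members is not known. Besides the 3 genes above the 10 were CYP71B5, CYP71B29, CYP71B34, CYP71B35, CYP71B36, UGT84A4 and UGT88A1. Several of these calls were unsteady. That of CYP71B34 in Col (-0.36, limma adjusted p = 0.0413) ended in 9 of 18 alternatives, among them the replicate block and the removal of either unsalted Col array or replicate 2 of salted Col. That of UGT88A1 in Ws (-0.59, adjusted p = 0.0258) ended without either unsalted Ws array, without replicate 1 of salted Ws (-0.38) and without both salted replicate 1 arrays, and that of CYP71B29 in Ws without replicate 1 of unsalted Ws. CYP71B5 (AT3G53280) read 5.17 and 5.78 in salted Ws, against 6.65 and 6.93 in unsalted Ws, and 5.25 and 5.63 in salted Col, against 6.99 and 6.41 in unsalted Col. It fell by 1.32 ± 0.25 in Ws (log2, limma adjusted p = 0.00656) and by 1.26 ± 0.25 in Col (adjusted p = 0.00376); the call in Ws ended without replicate 2 of unsalted Ws (adjusted p of up to 0.0668). CYP71B36 (AT3G26320) changed by -1.39 in Col (adjusted p = 0.00547) and by -1.03 in Ws (adjusted p = 0.0403), where its salted arrays read 5.35 and 6.41 against 6.90 and 6.94 unsalted. The call in Ws ended in 10 of 18 alternatives, among them the removal of either unsalted Ws array or of replicate 1 of salted Ws (adjusted p of up to 0.198). Its value there was -0.50 without replicate 1 and -1.57 without replicate 2 of salted Ws. CYP71B35 (AT3G26310) changed by -0.76 ± 0.16 in both genotypes, and its call in Ws ended without replicate 1 of salted or replicate 2 of unsalted Ws (adjusted p of up to 0.0878).

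UGT84A3 (AT4G15490) and UGT84A4 (AT4G15500), neighbours on chromosome 4 that make glucose esters of hydroxycinnamic acids, fell in Col. UGT84A3 read 7.64 and 8.05 in salted Col, against 9.29 and 9.29 in unsalted Col, a change of -1.45 ± 0.26 (log2, limma adjusted p = 0.00222). UGT84A4 read 5.28 and 5.26 in salted Col, against 6.54 and 6.51 in unsalted Col, a change of -1.26 ± 0.12 (adjusted p = 7.37e-05). Neither pair of groups overlapped. In Ws UGT84A4 changed by -0.59 ± 0.12 (adjusted p = 0.0103). This call ended without replicate 1 of salted or replicate 2 of unsalted Ws and in a fit of the 4 Ws arrays alone. UGT84A3 read 7.66 and 8.61 in salted Ws, against 8.26 and 8.44 in unsalted Ws, which overlap. The third gene of this row, UGT84A1, was not called in any comparison.

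Other falls in Col were those of UGT71C4, CYP71B24, CYP84A4 and CYP71B28. UGT71C4 (AT1G07250) read 8.27 and 9.18 in salted Col, against 10.15 and 9.93 in unsalted Col, and changed by -1.31 ± 0.34 (log2, limma adjusted p = 0.015); this call ended without replicate 1 of either group (adjusted p of up to 0.104), with -0.86 when that of the salted group was left out. CYP71B24 (AT3G26230) read 6.36 and 6.44 in salted Col, against 7.43 and 7.51 in unsalted Col, and changed by -1.07 ± 0.15 (adjusted p = 0.000478). CYP84A4 (AT5G04330), which acts in arabidopyrone synthesis, read 4.95 and 5.06 in salted Col, against 5.90 and 6.00 in unsalted Col, and changed by -0.95 ± 0.12 (adjusted p = 0.000277). In each of these genes both salted arrays were below both unsalted ones. UGT85A4 (AT1G78270) was called lower in Ws, at -0.98 ± 0.23 (adjusted p = 0.0167), with 5.85 and 6.54 in salted Ws against 7.08 and 7.28 in unsalted Ws. This call ended in a fit of the 4 Ws arrays alone. It also ended without either unsalted array or replicate 1 of the salted group, with -0.64 in the last case.

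**Figure D4:**
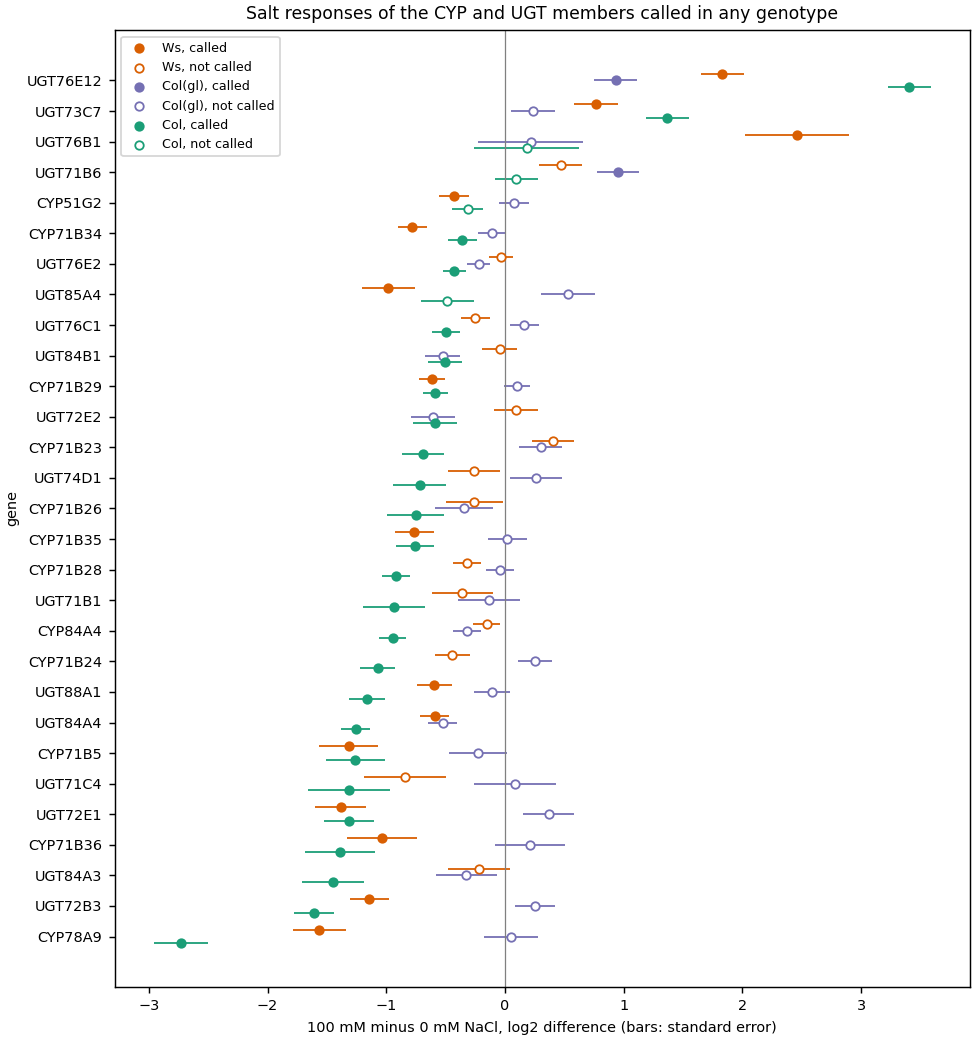
Salt response (log2, 100 mM minus 0 mM NaCl, bars are standard errors) of the 29 members called with salt in at least 1 genotype; filled points are called by limma and open points are not. Most Ws and Col points lie left of 0, most Col(gl) points lie near 0, and UGT76E12 lies to the right in each genotype.

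The test of the difference between responses set Col(gl) apart from Col for 16 members (23.5%), 14 of them with the higher value in Col(gl), where 17.4% of all probe sets were called, 8.77% higher and 8.58% lower. Of the 16, 8 were CYP genes, all higher in Col(gl). The largest differences after CYP78A9, UGT72B3 and UGT72E1 were those of CYP71B36 (1.60, limma adjusted p = 0.028) and CYP71B24 (1.32, adjusted p = 0.0028). Those of CYP71B36 and 8 other genes ended when single arrays were left out, and 7 genes kept their call in every alternative run: CYP71B24, CYP71B28, CYP78A9, UGT72B3, UGT72E1, UGT76E12 and UGT88A1. The count was 10 without replicate 1 and 7 without replicate 2 of unsalted Col, 10 without replicate 1 of salted Col, and 7 to 9 without any 1 of the Col(gl) arrays. It was 19, with 16 higher and 3 lower, without both salted replicate 1 arrays of Ws and Col, and 14 of the 16 calls remained. For Ws against Col 3 members were called (4.41%), 2 higher and 1 lower, against 4.66% of all probe sets (2.53% higher and 2.14% lower). They were UGT76E12, CYP84A4 (0.79, adjusted p = 0.0278) and CYP71B23 (1.10, adjusted p = 0.041). The count was 10 without replicate 1 of salted Ws, 13 without both salted replicate 1 arrays, and 1, UGT76E12, without any 1 of the unsalted arrays of the 3 genotypes or either salted Col(gl) array. All these differences share the unsalted and salted Col arrays with the Col response itself.

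Without salt, Ws differed from Col in 13 members (19.1%), 4 higher and 9 lower, where 15.8% of all probe sets were called, 8.48% higher and 7.32% lower. The median over the members was -0.18, beside 0.00 over all probe sets. CYP71B24 had the largest difference. It read 4.72 and 4.39 in Ws, against 7.43 and 7.51 in Col, a difference of -2.92 ± 0.15 (log2, limma adjusted p = 2.55e-06, 7.56-fold lower). CYP71B26 (AT3G26290) read 8.50 and 8.52 in Ws, against 10.74 and 10.67 in Col, a difference of -2.20 ± 0.24 (adjusted p = 0.000315). CYP71B23 (AT3G26210) read 5.52 and 5.69 in Ws, against 6.96 and 6.91 in Col, a difference of -1.33 ± 0.18 (adjusted p = 0.00101). The Ws and Col arrays were widely apart for all 3 genes. How well the Ws sequences match these probes was not examined. Higher in Ws were CYP71B35, by 1.00 ± 0.16 (adjusted p = 0.00284), and CYP71B34 (AT3G26300), by 0.79 ± 0.12 (adjusted p = 0.00217).

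The largest rise in unsalted Ws over Col was in UGT87A2 (AT2G30140), a regulator of flowering time, at 9.87 and 9.91 in Ws, against 8.43 and 8.14 in Col. Its difference of 1.60 ± 0.41 (log2, limma adjusted p = 0.0283) ended without any 1 of these 4 arrays (adjusted p of up to 0.141). UGT76C2 (AT5G05860), a cytokinin N-glucosyltransferase, was higher by 0.59 (adjusted p = 0.0233), with 7.45 and 7.60 in Ws against 6.98 and 6.88 in Col, and its call ended in the same way. CYP84A4 was at -0.75 ± 0.12 (adjusted p = 0.00234). CYP78A9 was at -0.92 ± 0.23 (adjusted p = 0.0231), a call that likewise ended without any 1 of the 4 arrays. UGT84A3 (-0.94), UGT88A1 (-0.67) and UGT84A4 (-0.50) were also called lower in unsalted Ws, with no overlap of the groups. Their calls ended in 8, 3 and 4 of 19 alternatives. The count of 13 became 6 or 7 without replicate 1 or replicate 2 of either group, and 6 members were called in every alternative: CYP71B23, CYP71B24, CYP71B26, CYP71B34, CYP71B35 and CYP84A4. With both salted replicate 1 arrays left out, the 13 were called among 22, and in a fit of the 4 arrays compared 23 members were called.

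Col(gl) without salt differed from Col in 22 members (32.4%), 6 higher and 16 lower, where 23.8% of all probe sets were called, 10.3% higher and 13.5% lower. The median over the members was -0.08, beside -0.04 over all probe sets. CYP78A9 read 6.05 and 5.96 in Col(gl), against 8.66 and 8.82 in Col, a difference of -2.73 ± 0.23 (log2, limma adjusted p = 1.91e-05, 6.64-fold lower). CYP71B26 read 8.47 and 8.47 in Col(gl), against 10.74 and 10.67 in Col, a difference of -2.24 ± 0.24 (adjusted p = 0.000104). The Col(gl) and Col arrays did not overlap in either gene, and both genes were also lower in Ws, which is set against the same Col arrays.

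UGT78D1 (AT1G30530), a flavonol rhamnosyltransferase, was lower in Col(gl) than in Col under both conditions. Without salt it read 7.74 and 7.32 in Col(gl), against 9.61 and 9.40 in Col, a difference of -1.97 ± 0.22 (log2, limma adjusted p = 0.000135). With salt it read 6.84 and 7.04 in Col(gl), against 9.55 and 9.0 in Col, a difference of -2.34 ± 0.22 (adjusted p = 0.000115). All 4 Col(gl) arrays lay below all 8 arrays of Ws and Col. Its difference between Ws and Col was not called at either salt level. UGT74D1 (AT2G31750), which glucosylates auxins, read 6.76 and 6.59 in unsalted Col(gl), against 8.46 and 8.33 in unsalted Col, a difference of -1.72 ± 0.22 (adjusted p = 0.000298). With salt the difference was -0.74 (adjusted p = 0.0366). It was not called after quantile normalization, nor without any 1 of the unsalted arrays or of the 4 arrays compared.

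UGT72B3, UGT71B1, CYP71B35 and UGT76E11 completed the largest deficits of unsalted Col(gl). UGT72B3 read 5.05 and 5.03 in Col(gl), against 6.80 and 6.80 in Col, a difference of -1.76 ± 0.17 (log2, limma adjusted p = 4.11e-05). UGT71B1 (AT3G21750) read 6.35 and 5.90 in Col(gl), against 7.78 and 7.92 in Col, a difference of -1.73 ± 0.26 (adjusted p = 0.000881). CYP71B35 read 6.00 and 5.83 in Col(gl), against 7.61 and 7.39 in Col, a difference of -1.59 ± 0.16 (adjusted p = 6.6e-05). In each gene the 2 groups were separate. UGT76E11 read 6.92 and 6.98 in Col(gl), against 8.58 and 8.45 in Col, a difference of -1.56 ± 0.35 (adjusted p = 0.00822), and its call ended without replicate 1 of Col(gl) or of Col (adjusted p of up to 0.0595).

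The 6 members higher in unsalted Col(gl) than in Col were UGT85A2, CYP71B22, UGT71C5, UGT80B1, UGT71B6 and CYP71B23. UGT85A2 (AT1G22360) read 9.0 and 8.94 in Col(gl), against 7.93 and 7.82 in Col, a difference of 1.09 ± 0.21 (log2, limma adjusted p = 0.00356). CYP71B22 (AT3G26200) read 6.06 and 5.95 in Col(gl), against 5.10 and 4.87 in Col, a difference of 1.02 ± 0.13 (adjusted p = 0.000287). UGT71C5 (AT1G07240), an abscisic acid glucosyltransferase, read 8.07 and 7.81 in Col(gl), against 7.22 and 7.15 in Col, a difference of 0.75 ± 0.15 (adjusted p = 0.00481). In all 3 genes both Col(gl) arrays were above both Col arrays. The call of UGT71C5 ended without replicate 1 of Col(gl) (adjusted p = 0.0521), and so did that of UGT71B6 (0.68 ± 0.18), which also ended without replicate 2 of Col (adjusted p of up to 0.173). The call of CYP71B23 (0.57, adjusted p = 0.0425) ended without any 1 of the 6 unsalted or 2 salted Col(gl) arrays. UGT80B1 (AT1G43620), a sterol glucosyltransferase, was higher by 0.68 ± 0.11 (adjusted p = 0.00103). The count of 22 was 14 without replicate 1 of unsalted Col(gl), and 14 of the 22 members were called in every alternative.

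With salt, Col(gl) was above Col in more members than below it. It differed in 21 members (30.9%), 13 higher and 8 lower, where 24.3% of all probe sets were called, 11% higher and 13.3% lower. Without the replicate 1 arrays of salted Ws and Col the count was also 21, but with 10 higher and 11 lower, and 18 of the 21 calls remained. The count was 13 without replicate 1 of salted Col and 12 without replicate 1 of salted Col(gl). CYP71B23 read 7.77 and 7.84 in Col(gl), against 5.97 and 6.52 in Col, a difference of 1.56 ± 0.18 (log2, limma adjusted p = 0.000312). UGT71B6 read 6.15 and 5.83 in Col(gl), against 4.41 and 4.50 in Col, a difference of 1.53 ± 0.18 (adjusted p = 0.000364), and UGT71C5 read 8.01 and 8.21, against 6.76 and 7.03, a difference of 1.21 ± 0.15 (adjusted p = 0.000531). Both genes were above Col at each salt level, with no overlap of the groups.

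UGT85A2 (1.42 ± 0.21), UGT85A4 (1.22 ± 0.23), CYP71B24 (1.17 ± 0.15), UGT72E1 (1.08 ± 0.21) and CYP71B29 (1.00 ± 0.11) were the other members with the largest positive log2 differences between salted Col(gl) and salted Col, with limma adjusted p of 0.000246 to 0.0058. CYP71B29 (AT1G13100), for example, read 7.08 and 6.90 in salted Col(gl), against 5.96 and 6.02 in salted Col. On the lower side UGT76E12 read 5.12 and 5.38 in salted Col(gl), against 7.56 and 7.80 in salted Col, a difference of -2.43 ± 0.18 (adjusted p = 3.59e-05). CYP71B26 was at -1.83 ± 0.24 (adjusted p = 0.000728) and UGT73C7 at -1.28 ± 0.18 (adjusted p = 0.00118). Of the members, 12 differed from Col in the same direction at both salt levels and 0 in opposite directions. How often all probe sets did so was not computed. The 12 were CYP71B22, CYP71B23, UGT71B6, UGT71C5, UGT80B1 and UGT85A2 on the higher side and CYP71B26, CYP71B35, UGT71B1, UGT74D1, UGT76E11 and UGT78D1 on the lower. With salt the call of UGT76E11 ended in 10 of 18 alternatives, that of CYP71B22 in 2 and that of CYP71B35 in 1.

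Salted Ws differed from salted Col in 11 members (16.2%), 5 higher and 6 lower, where 12.7% of all probe sets were called, 6.65% higher and 6.08% lower. CYP71B24 read 4.27 and 3.95 in Ws, against 6.36 and 6.44 in Col, a difference of -2.29 ± 0.15 (log2, limma adjusted p = 9.93e-06), which is a lower bound on its size, since the Ws mean lay under the lower quartile. UGT76E12 was at -1.86 ± 0.18 (adjusted p = 0.000139) and CYP71B26 at -1.70 ± 0.24 (adjusted p = 0.0015). UGT76B1 read 5.61 and 7.40 in Ws, against 4.50 and 4.31 in Col, a difference of 2.1 ± 0.44 (adjusted p = 0.0125). This call ended without replicate 2 of salted Col and in a fit of the 4 arrays compared. The value ranged from 1.21 to 3.09 over the alternatives and was 1.21 without replicate 2 of salted Ws. UGT74D1 was higher in Ws by 1.00 ± 0.22 (adjusted p = 0.0152), and CYP71B35 by 1.00 ± 0.16 (adjusted p = 0.00305). The call of UGT74D1 ended without replicate 1 of salted Col and in a fit of the 4 arrays compared. Its value was 0.61 without replicate 2 of salted Ws. CYP71B6 (AT2G24180), which converts indole-3-acetonitrile, was higher by 0.64 ± 0.14 (adjusted p = 0.0148). Its call ended without replicate 1 of salted Col, without both salted replicate 1 arrays and in a fit of the 4 arrays compared. UGT85A2 (-1.16) and UGT73C7 (-0.75) were called lower and CYP71B28 (0.49) higher in salted Ws, with no overlap of the groups. Their calls ended in 1, 3 and 4 of 18 alternatives. CYP71B24, CYP71B26, CYP71B35 and UGT80B1 differed between Ws and Col in the same direction with and without salt. The count was 20 without replicate 1 of salted Ws, 7 without replicate 1 of salted Col and 19 without both of these arrays. In a fit of the 4 arrays compared it was 2, CYP71B24 and UGT76E12.

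The CYP71B genes lie partly in rows along chromosome 3, and neighbours did not differ between genotypes as 1 block. By gene order in the RefSeq assembly TAIR10.1, with neighbours at most 3 gene ranks apart, 45 of the 68 members fell into 16 clusters. The largest held 6 genes, CYP71B25, CYP71B26, CYP71B34, CYP71B35, CYP71B36 and CYP71B37, and near it lay a run of 4, CYP71B21 to CYP71B24. Within the run of 4, unsalted Ws differed from Col by -0.09, -0.19, -1.33 and -2.92 on the log2 scale in gene order, the last 2 being called. CYP71B21, the first, was not above the lower quartile in any group, and neither was CYP71B37 of the run of 6. Within the run of 6, CYP71B26 was at -2.20, while the adjacent CYP71B34 and CYP71B35 were at 0.79 and 1.00. Unsalted Col(gl) differed from Col by 1.02 at CYP71B22 and by -0.16 at CYP71B24, and CYP71B26 and CYP71B35, at -2.24 and -1.59, enclosed CYP71B34, at -0.09. The salt calls within the run of 6 were all lower. In Col they were CYP71B26, CYP71B34, CYP71B35 and CYP71B36, at -0.75, -0.36, -0.76 and -1.39. In Ws CYP71B34, CYP71B35 and CYP71B36 were called, at -0.78, -0.76 and -1.03, and CYP71B26, at -0.26, was not. CYP71B25 and CYP71B37 were not called with salt, and no gene of the run was called with salt in Col(gl).

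**Figure D5:**
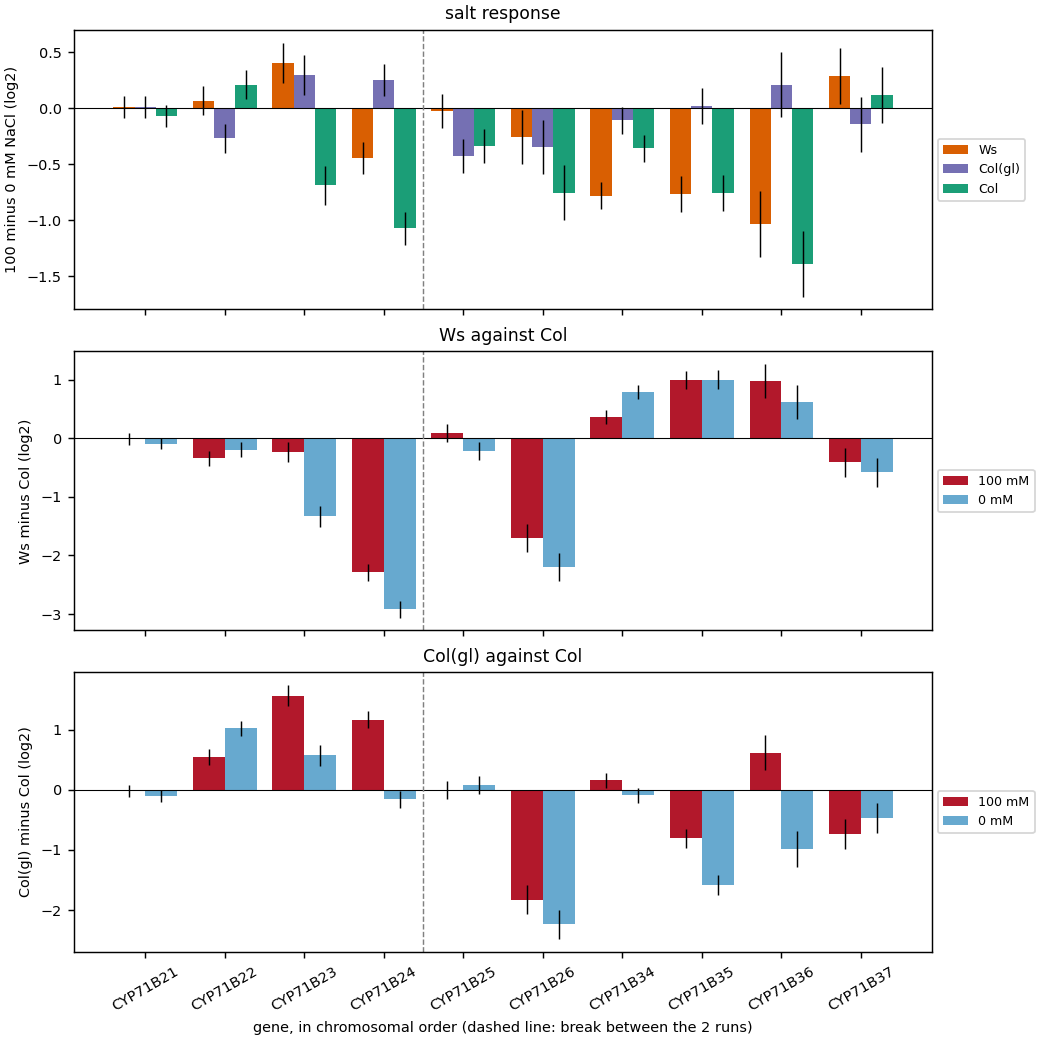
Log2 differences (bars are standard errors) of the 10 CYP71B members in 2 runs on chromosome 3, in gene order; the top panel gives the salt response of each genotype, the middle panel Ws minus Col and the bottom panel Col(gl) minus Col, at 100 and 0 mM NaCl. CYP71B24 and CYP71B26 are below Col in Ws at both salt levels, while CYP71B35, 3 gene ranks from CYP71B26, is above Col in Ws and below it in Col(gl).

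UGT rows showed the same unevenness. Of UGT71C5, UGT71C4 and UGT71C3 on chromosome 1, unsalted Col(gl) differed from Col by 0.75, -1.16 and -0.04. The first 2 were called, though that of UGT71C4 ended without any 1 of the unsalted or salted Col(gl) arrays. Of UGT85A7, UGT85A2, UGT85A5 and UGT85A3 on the same chromosome, UGT85A2 alone was called there. With salt UGT85A2 and UGT85A5 (AT1G22370) were called. UGT85A5 was at 0.93 (limma adjusted p = 0.0203), a call that ended without replicate 1 of either salted group or replicate 2 of salted Col(gl), with 0.58 when replicate 1 of salted Col was left out. UGT71B1 and UGT71B6, 3 gene ranks apart on chromosome 3, were called in opposite directions in Col(gl) against Col at both salt levels. With salt the call of UGT71B1, at -0.93 (adjusted p = 0.0296), ended without either salted Col array or replicate 1 of salted Col(gl).

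By role, 8 of the 16 genes listed for phenylpropanoid and flavonoid metabolism were members. With salt 4 were lower in Col (UGT72E1, UGT72E2, UGT84A3 and UGT84A4) and 2 in Ws, and 0 were called in Col(gl), where 21.1%, 7.45% and 0.703% of all probe sets were lower. Without both salted replicate 1 arrays 4 were lower in Col and 3 in Ws, and in Col(gl) 2 were lower and 1 higher. UGT72E2 (AT5G66690), a monolignol glucosyltransferase, was at -0.59 in Col (limma adjusted p = 0.0325), a call that ended without replicate 1 of unsalted Col (-0.39) or either salted Col array. Of the 8 abscisic acid genes 3 were measured. UGT71B6 and UGT71C5 were above Col in Col(gl) at both salt levels, and UGT71B8, the third, was not called in any comparison. None of these 3 was called with salt in Ws or Col, though UGT71C5 was called lower in Ws without both salted replicate 1 arrays.

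Of the 4 auxin genes 2 were measured, UGT74D1 and UGT84B1 (AT2G23260), which glucosylate auxins, and both were lower with salt in Col, where 21.1% of all probe sets were. UGT74D1 read 7.54 and 7.81 in salted Col, against 8.46 and 8.33 in unsalted Col, a change of -0.72 ± 0.22 (log2, limma adjusted p = 0.0284), and UGT84B1 read 3.84 and 3.86, against 4.50 and 4.20, a change of -0.50 (adjusted p = 0.0238), a lower bound on its size. Both calls ended without replicate 1 of either Col group, that of UGT74D1 also without replicate 2 of unsalted Col and that of UGT84B1 without replicate 2 of salted Col or without both salted replicate 1 arrays. Of the 6 cytokinin genes 3 were measured, and UGT76C1 (AT5G05870), an N-glucosyltransferase, was called lower with salt in Col, at -0.50 ± 0.12 (adjusted p = 0.0105), and in unsalted Col(gl) against Col, at -0.38 (adjusted p = 0.045). The first of these ended without replicate 2 of unsalted or replicate 1 of salted Col, and the second without either array of unsalted Ws, any Col(gl) array or replicate 2 of unsalted Col.

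Of the 3 salicylate genes 2 were measured, UGT76B1 as given above and UGT74F1, which was not called. Of the 5 sterol genes UGT80B1 was the member measured. It was above Col in Col(gl) and below Col in Ws at both salt levels, with no salt call in any genotype. Of these calls that in unsalted Col(gl) held in every alternative, while the other 3 ended without single arrays. That in salted Col(gl) ended in 12 of 18 alternatives, among them the replicate block. Of 8 genes listed for stress and xenobiotic response 3 were measured (UGT73B1, UGT73B4 and UGT73B5), and 0 were called with salt, though UGT73B1 was called higher in Ws and in Col without both salted replicate 1 arrays. UGT73B5 (AT2G15480) was higher in salted Col(gl) than in salted Col by 0.65 (limma adjusted p = 0.0293), a call that ended without replicate 1 of salted Col or either salted Col(gl) array. No member was measured from the lists for brassinosteroids, jasmonate, glucosinolates, gibberellins, carotenoids, iron, fatty acid and wax hydroxylation, or growth and branching.

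Glutathione S-transferases, which conjugate glutathione in the same detoxification chemistry, were read beside the members. Of 12 measured genes of the tau and phi classes 6 were lower and 0 higher with salt in Col, 3 were lower and 0 higher in Ws, and 0 were called in Col(gl) by limma, where 21.1%, 7.45% and 0.703% of all probe sets were called lower. Without both salted replicate 1 arrays 7 were lower in Col, 3 in Ws and 1 in Col(gl), and 0 were higher. GSTU18, GSTU23 and GSTF4 were lower in both Ws and Col, at -0.74, -1.04 and -1.19 in Ws and -1.22, -1.26 and -0.67 in Col. In Col(gl) against Col without salt 1 gene was higher, GSTU27 at 0.75 ± 0.12 (limma adjusted p = 0.00108), and 2 were lower. GSTU23 was at -1.11 ± 0.22 (adjusted p = 0.00462) and GSTU16 at -2.01 ± 0.28 (limma adjusted p = 0.000469).

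Among the 28 members called in no comparison, 8 had group means above the lower quartile in all 6 groups: UGT71B5, UGT71B8, UGT73B1, UGT74F1, UGT78D3, UGT84A1, UGT85A3 and UGT85A7. Of these 8, UGT73B1 (AT4G34138) came nearest to a call. In unsalted Col(gl) it read 7.12 and 7.0, against 5.86 and 5.78 in unsalted Col, a difference of 1.24 ± 0.41 (log2, limma adjusted p = 0.0554). With salt its values were 5.92 and 7.15 in Ws and 6.09 and 7.01 in Col, so the replicates of each of these groups lay much further apart than the group means, 6.53 and 6.55.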

How the data were processed

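Leaf RNA of 12 samples in 6 groups was hybridised to Affymetrix arrays. Per the submitters' processing notes, GCOS and RMA were used, with versions not stated, and what was deposited is, for every array and probe set, the log2 of an RMA signal. These values were not normalized again. The table held 22810 probe sets and 0 missing values, and 64 control probe sets were left out of the fit. Annotation gave 1 gene for 13513 of those tested, several for 503 and none for 8730. Genes were named from the platform annotation and matched to RefSeq (68 of 68 members). How well the sequences of the 3 genotypes match the probes was not examined. All member probe sets are of the kind named without _s or _x.

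Group means were modelled per probe set by limma (version 3.58.1, under R 4.3.3; functions lmFit and eBayes, 6 residual and 3.45 prior degrees of freedom), with two-sided p-values adjusted by Benjamini-Hochberg over 22746 probe sets within each comparison and a threshold of 0.05. With 2 arrays per group the number of arrays limits the precision. The study calls the replicates biological; how plants were divided among them is not stated, and p-values measure only the spread between these samples. The script was tested on simulated data. Plots used Python 3.11.15 and matplotlib 3.10.9.

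The members, lists, comparisons and rules were chosen with earlier results of these data known. In each comparison up to 8 called members per direction whose groups do not overlap were named, with up to 4 called members of each role list and members called alike in all 3 salt responses. The further members of the chromosome rows, those lower with salt in both Ws and Col, UGT73C1 and UGT73B1, and the glutathione S-transferases were named after their values were seen. Alternatives were a replicate block, a filter on the lowest 25% of signal, quantile normalization of the values, eBayes with trend and robust options, only the groups compared, each array left out in turn, and both salted replicate 1 arrays of Ws and Col left out. A group reduced to 1 array borrowed its spread from the remaining groups.

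Same-numbered replicates did not deviate together in every comparison (correlations between -0.35 and 0.70), so the numbers are not taken as pairs. The highest, 0.70, was between salted Ws and salted Col, whose replicate 1 arrays stood apart. The main fit of that comparison does not take this shared deviation into account. With the replicate block it also called 11 members.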

Additional observations from a re-analysis of the deposited data

Results flagged for a closer look

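The values below are differences between the salt responses of 2 genotypes (log2) that passed limma's test of that difference. Each compares a response with that of Col and so rests on the same 4 Col arrays.

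In Ws against Col, UGT76E12 was lower (-1.58), and CYP84A4 (0.79) and CYP71B23 (1.10) were higher. CYP84A4 read 4.93 and 5.16 in salted Ws, against 5.11 and 5.29 in unsalted Ws, while CYP71B23 read 5.85 and 6.17 in salted Ws, against 5.52 and 5.69 in unsalted Ws. The value of UGT76E12 has no exact size, since its unsalted means in Ws and Col were not above the mean 25th percentile of signal.

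In Col(gl) against Col, UGT76E12 (-2.47) and UGT73C7 (-1.13) were lower. Neither size is exact, since the unsalted mean of UGT76E12 in Col and that of UGT73C7 in Col(gl) were not above that percentile. The CYP genes that were higher were CYP84A4 (0.63), CYP71B29 (0.69), CYP71B35 (0.78), CYP71B28 (0.87), CYP71B23 (0.99), CYP71B24 (1.32), CYP71B36 (1.60) and CYP78A9 (2.78). Among the UGT genes UGT76C1 (0.66), UGT84A4 (0.73), UGT71B6 (0.86), UGT88A1 (1.05), UGT72E1 (1.68) and UGT72B3 (1.86) were higher. Of these, UGT88A1 (AT3G16520) read 10.01 and 10.09 in salted Col(gl), against 10.19 and 10.13 in unsalted Col(gl), and 10.37 and 10.61 in salted Col, against 11.75 and 11.56 in unsalted Col. Outliers within groups could not be looked for with 2 arrays per group.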

How the results depend on the processing

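The 128 called member values were recomputed 2318 times in all: 1964 stayed past the threshold, 354 fell short of it and 0 changed sign. With the replicate block 0 members were called with salt in Col(gl), and the block moved no other count by over 1.5 times. With only the groups compared in the fit, the counts were 1 for salt in Ws, 6 for salt in Col(gl), 23 and 2 for Ws against Col at 0 and 100 mM, and 1 for the difference of responses of Ws and Col. With both salted replicate 1 arrays of Ws and Col left out they were 9 for salt in Col(gl), 22 and 19 for Ws against Col at 0 and 100 mM, and 13 for the difference of responses of Ws and Col. Leaving out 1 array at a time gave 7 to 25 for salt in Ws, 17 to 28 in Col, 0 to 3 in Col(gl), 6 to 17 and 7 to 20 for Ws against Col at 0 and 100 mM, 14 to 24 and 12 to 24 for Col(gl) against Col at 0 and 100 mM, and 1 to 10 and 7 to 22 for the responses of Ws and of Col(gl) against that of Col. Added after seeing the data, a block with crossed replicate numbers and only the groups compared called 17 members for salt in Col(gl) and 28 for Ws against Col at 0 mM. The filter, quantile and trend settings kept all counts within 1.5 times. The causes were not tested, beyond the smaller number of arrays in some fits. The share of all probe sets called was not computed for these alternatives. A choice between probe sets of a gene was not run, since no gene had several. Signals near 4.30 bound the folds of dim genes.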
